A study of Mus musculus with 16 samples.

Results

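The genes described here are the activators, the cryptochromes and the nuclear receptors of the core circadian clock. They are Arntl (which encodes BMAL1), Clock, Npas2, Cry1, Cry2, Nr1d1, Nr1d2 and Rora. They were taken by symbol, and all 8 are listed among the 38933 genes of the cortical bone table and the 21011 genes of the skeletal muscle table. The choice used their known roles and no threshold on a measured value, though earlier results of these data were known.

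RNA was sequenced from 16 libraries of female C57BL/6 mice that were 18 months old when treatment began. BAY-treated mice received the aryl hydrocarbon receptor (AhR) inhibitor BAY2416964 by oral gavage for 8 weeks, with 5 weekly doses of 30 mg/kg each. VEH-treated mice received its vehicle of ethanol, Solutol and water on the same schedule. All mice were kept in 12 hours of light and 12 hours of dark. Each tissue holds 4 VEH-treated and 4 BAY-treated mice, with 1 library per mouse, and mice are called VEH 1 to 4 and BAY 1 to 4. The tissues are the tibialis anterior (TA) muscle and the shafts of cortical bone, which were digested with collagenase after the marrow cells were removed. The clock hour at which tissue was taken is not given in the sources used here, and neither is whether the bone and muscle came from the same mice. The deposited column of muscle VEH 3 has the word replacement in its name.

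As background, BMAL1 pairs with CLOCK, or with its paralog NPAS2, and binds E-box sequences to switch on the Per, Cry and Nr1d genes. The PER and CRY proteins then block the activator pair, which closes the main loop. In a second loop REV-ERBα and REV-ERBβ, the products of Nr1d1 and Nr1d2, repress Arntl at ROR elements, where RORα, the product of Rora, activates it. Skeletal muscle has such a clock of its own, which times its use of glucose and fat.

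The binding sequences of that circuit were looked up in the reference genome so that the 2 loops can be read in the genes themselves. Windows of 500 bases, from 300 bases before to 200 bases after the start of each gene's canonical transcript (GRCm39, GENCODE release M39), were searched on both strands. The letters searched were CACGTG (E-box), CACGTT (E'-box), TTANGTAA (D-box) and TAGGTNA (ROR element), and none of the matches printed here shares a base with another. Of 21770 protein-coding windows, 10.7% held an E-box, 8.21% an E'-box, 3.27% a D-box and 13.2% a ROR element, so each match is a description and not a bound site.

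The Arntl window, around chromosome 7 position 112806643 on the plus strand, held a pair of ROR elements and no other motif. They start 69 and 105 bases after the transcript start and are shown because they are the letters that REV-ERB and ROR proteins read. Each of these 30-base stretches runs 5′ to 3′ along the gene, with the motif in capitals.
Arntl, chr7:112806701-112806730: tggtcggaaagTAGGTTAgtggtgcgacat
Arntl, chr7:112806737-112806766: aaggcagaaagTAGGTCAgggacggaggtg

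Matches to the E-box and the E'-box, the letters of the activator pair, were found in the windows of both cryptochromes and of Nr1d1. These 3 genes lie on the minus strand, and the stretches again run along the gene. The E'-box matches of Cry1, Cry2 and Nr1d1 read against the gene, so that their capitals show the reverse complement.
Cry1, E-box 29 bases before the start, chr10:85020961-85020990: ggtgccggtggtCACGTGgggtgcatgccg
Cry1, E'-box 48 bases before the start, chr10:85020980-85021009: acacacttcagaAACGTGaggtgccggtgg
Cry2, E'-box 106 bases before the start, chr2:92264563-92264592: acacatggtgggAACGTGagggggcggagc
Nr1d1, E'-box 72 bases before the start, chr11:98666214-98666243: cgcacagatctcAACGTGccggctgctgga

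The Nr1d1 window also held 1 ROR element, 171 bases after the start and reading against the gene.
Nr1d1, chr11:98665970-98665999: tcatttctccaTCACCTActtacttcctgg
The windows of Clock, Npas2, Nr1d2 and Rora held none of these letters. The canonical Rora transcript starts inside the annotated gene, so its window lies far from the first exon of the longer transcripts.

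Levels are given as CPM (counts scaled to the library total), the unit of the deposited values once their log2 scale is undone. A single read was worth between 0.108 and 0.163 CPM in muscle, where 6131919 to 9262358 reads per library fell on genes, and between 0.144 and 1.07 CPM in bone, where 930307 to 6951919 did. The muscle libraries held 108325 to 181907 CPM on 8 listed genes of the muscle fibre. In these whole-tissue libraries fewer cells of a type and less RNA per cell cannot be told apart.

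In muscle none of the 8 core genes passed the test between BAY- and VEH-treated mice, while 10 of 24 other clock genes, described further on, were higher in BAY at an unadjusted P value under 0.05. The largest difference was in Arntl, which averaged 14.8 CPM ± 3.36 (SD, n = 4) in VEH and 11.1 ± 1.91 (SD, n = 4) in BAY. Nr1d1 and Cry2 leaned the other way, at 1.15 and 1.16 times the VEH level. The first count is of genes with an unadjusted P value under 0.05 in limma, fitted across all genes of the muscle table. It came to 0 of 8 members, where 9.79% of all genes passed, and 17.1% of those averaging 5 CPM or more. Groups without overlap were found for 0 of 8 members and for 5.73% of all genes, or 8.52% of those averaging 5 CPM or more. The median log2 fold change of the 8 members was -0.11, beside 0.06 over all genes tested.

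Among the activators, Arntl was listed at 15.0, 15.1, 18.6 and 10.4 CPM in VEH 1 to 4 and at 10.5, 12.9, 8.77 and 12.5 CPM in BAY 1 to 4. All VEH-treated mice but VEH 4 were above every BAY-treated mouse, and VEH 4 lay among the BAY-treated mice, so the groups overlapped. The difference came to a log2 fold change of -0.39 with a 95% confidence interval of -0.81 to 0.03. Its unadjusted P value was 0.0655, with an adjusted P value of 0.551 by limma and Benjamini-Hochberg over all genes of the table. Arntl passed the unadjusted threshold without VEH 4, at -0.55 (limma unadjusted P = 0.0109), and when each library was centred on its median or normalized by quantiles.

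Clock, the partner of BMAL1, was at 37.95, 35.8, 50.53 and 32.7 CPM in VEH 1 to 4. In BAY 1 to 4 it was at 36.9, 35.1, 33.9 and 30.01 CPM. VEH 3 stood above the other 7 mice, which spanned 30.01 to 37.95 CPM. The log2 fold change was -0.19 (95% confidence interval -0.50 to 0.12, limma adjusted P = 0.679), and -0.064 without VEH 3.

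Npas2, the paralog of Clock, was scarcely counted in muscle, with 3 to 16 reads per library. Its levels were 0.466, 0.697, 1.73 and 0.477 CPM in VEH 1 to 4 and 0.688, 0.815, 0.387 and 0.561 CPM in BAY 1 to 4. Only VEH 3 exceeded 1 CPM. It was also the only muscle library in which Npas2 exceeded the level set per exon base by the olfactory receptor genes, a class expressed mainly in the nose. A difference between the groups was not detectable at this depth, since the 95% confidence interval of the log2 fold change ran from -1.70 to 1.13.

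Both cryptochromes, the repressors of the activator pair, overlapped between the groups. Cry1 was at 6.98, 7.95, 5.72 and 5.37 CPM in VEH 1 to 4 and at 8.12, 5.22, 6.71 and 7.15 CPM in BAY 1 to 4, a log2 fold change of 0.06 (95% confidence interval -0.38 to 0.51). Its highest and its lowest value were both in BAY-treated mice.

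Cry2 was at 21.2, 30.95, 28.8 and 25.05 CPM in VEH 1 to 4. In BAY 1 to 4 it was at 31.8, 25.8, 32.3 and 32.5 CPM. All BAY-treated mice but BAY 2 lay above every VEH-treated mouse, while BAY 2 lay inside the VEH range. The log2 fold change was 0.22 (95% confidence interval -0.10 to 0.53, limma adjusted P = 0.656).

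Nr1d1, which encodes REV-ERBα, was at 89.4, 123.7, 153.7 and 91.2 CPM in VEH 1 to 4 and at 129.3, 114.3, 142.3 and 128.3 CPM in BAY 1 to 4. The lowest and the highest mouse were both VEH-treated, and all 4 BAY-treated mice fell between them. The log2 fold change was 0.20 (95% confidence interval -0.16 to 0.56, limma adjusted P = 0.702). Without VEH 3, the highest of the 8, it was 0.35 with an unadjusted P value of 0.0223. Of the 3242 exon bases of Nr1d1, 1694 are shared with Thra, the thyroid hormone receptor alpha gene, on the opposite strand. The muscle libraries were made with a kit that marks the strand, but whether the counting used it is not given in the sources used here. The recovered reads were fractions for both genes, at 767.905 for Nr1d1 and 388.093 for Thra in VEH 1. In each muscle library the fractions of the 2 genes add up to a whole read, within rounding, so some reads were divided between them. Levels of Nr1d1 in both tissues, and values relative to it, carry that limit. Thra itself averaged 55.5 CPM ± 10.03 (SD, n = 4) in VEH and 70.9 ± 5.29 (SD, n = 4) in BAY. Its groups did not overlap, as was so for 8.52% of genes averaging 5 CPM or more.

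Nr1d2, which encodes REV-ERBβ, was at 58.5, 67.3, 81.0 and 58.2 CPM in VEH 1 to 4 and at 75.7, 61.2, 68.5 and 46.0 CPM in BAY 1 to 4. All BAY-treated mice but BAY 4 lay inside the VEH range, and BAY 4 lay below it. Its log2 fold change was -0.09 (95% confidence interval -0.44 to 0.26). The sign turned without VEH 3 or without BAY 4.

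Rora, the activator that competes with the REV-ERB proteins, was at 88.0, 119.9, 143.5 and 89.2 CPM in VEH 1 to 4. In BAY 1 to 4 it was at 106.5, 92.5, 97.7 and 95.6 CPM, all inside the VEH range. Its log2 fold change was -0.14 (95% confidence interval -0.47 to 0.20), and -0.0011 without VEH 3. VEH 3 held the highest muscle level of Arntl, Clock, Npas2, Nr1d1, Nr1d2 and Rora. It also held 322.3 CPM on 6 listed adipocyte genes, where the median of the VEH-treated mice was 56.0 CPM and the BAY-treated mice spanned 41.4 to 49.7 CPM. The part of that difference in the clock gene values was not tested.

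**Figure D1:**
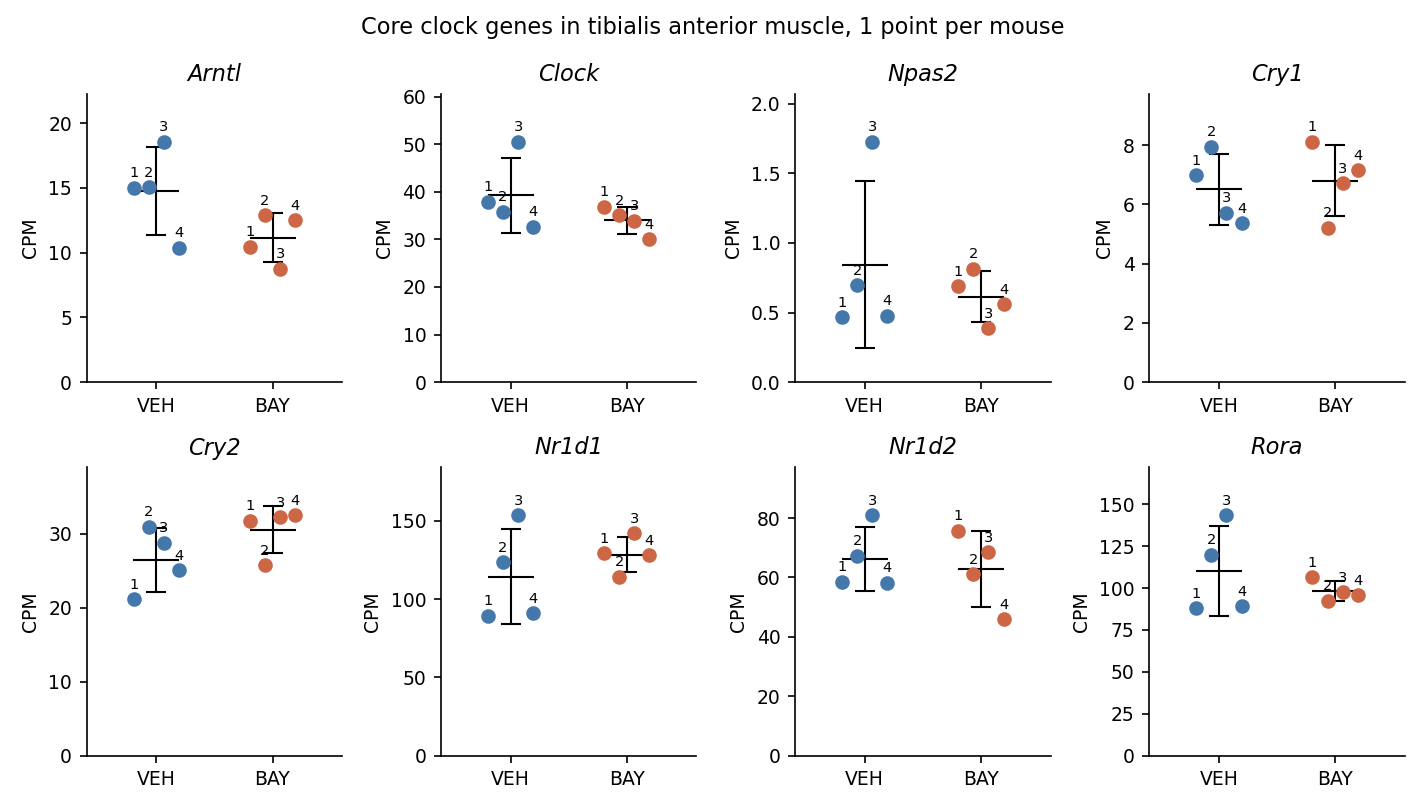
CPM of the 8 core clock genes in TA muscle, 1 point per mouse with its replicate number, and the mean with SD as bars for VEH (blue) and BAY (orange). The groups overlap in each panel, and VEH 3 is the highest point for 6 of the 8 genes.

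Relative to exon length, Nr1d1 was the most abundant of the 8 in muscle at 37.5 CPM per kilobase ± 6.98 (SD, n = 8). Rora followed at 7.19 ± 1.32 and Nr1d2 at 7.13 ± 1.22, and these neighbours did not differ beyond their spread. Cry2 stood at 3.32 ± 0.483 and Clock at 2.12 ± 0.356, and their ranges over mice also overlapped. Cry1 stood at 1.34 ± 0.225 and Arntl at 1.12 ± 0.275, again with overlap, and Npas2 was the lowest at 0.133 ± 0.0782. All other neighbours in this order were apart in their ranges over the 8 mice. Per exon length, both REV-ERB genes were thus above Arntl, the gene they repress, in every mouse.

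The 24 other clock genes examined beside them comprised the Per genes, the PAR-domain factors, the kinases and ubiquitin ligases of the PER and CRY proteins, and clock output genes. In muscle 10 of 24 passed the unadjusted P value of 0.05, all of them higher in BAY, where 6.71% of all genes passed in that direction. Among genes averaging 5 CPM or more, as each of these 10 does, 17.1% passed in either direction. The median log2 fold change of the 24 genes was 0.31. The list was chosen with results of these data known, and its count is a description. After adjustment over all 21011 genes none passed, the smallest adjusted P value being 0.206 by limma.

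Of these 10 genes, Ciart, a repressor of the activator pair, averaged 2.60 CPM in VEH and 9.52 in BAY, a log2 fold change of 1.87. Per1, which encodes a repressor of the same pair, averaged 31.5 CPM in VEH and 74.8 in BAY, a log2 fold change of 1.22, and Per2 had one of 1.06. Dbp, a D-box activator, had a log2 fold change of 0.86 and Per3 one of 0.74. Bhlhe41 (0.54), Bhlhe40 (0.42), Csnk1e (0.37), Tef (0.35) and Usp2 (0.30) completed the 10. The groups did not overlap for 3 of the 24, namely Ciart, Per2 and Per3. Groups without overlap were found for 5.73% of all genes and 8.52% of those averaging 5 CPM or more. Among the 14 that did not pass, Nampt stood at -0.34 and Wee1 at 0.02, and Rorb, with 0 to 9 reads per library, at -3.06 with a 95% confidence interval of -7.33 to 1.21, a value that depends on the offset added before the logarithm. The values of Cry1, Cry2, Nr1d1 and Nr1d2, which the same pair drives, stood at 0.06, 0.22, 0.20 and -0.09 on the same scale.

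**Figure D2:**
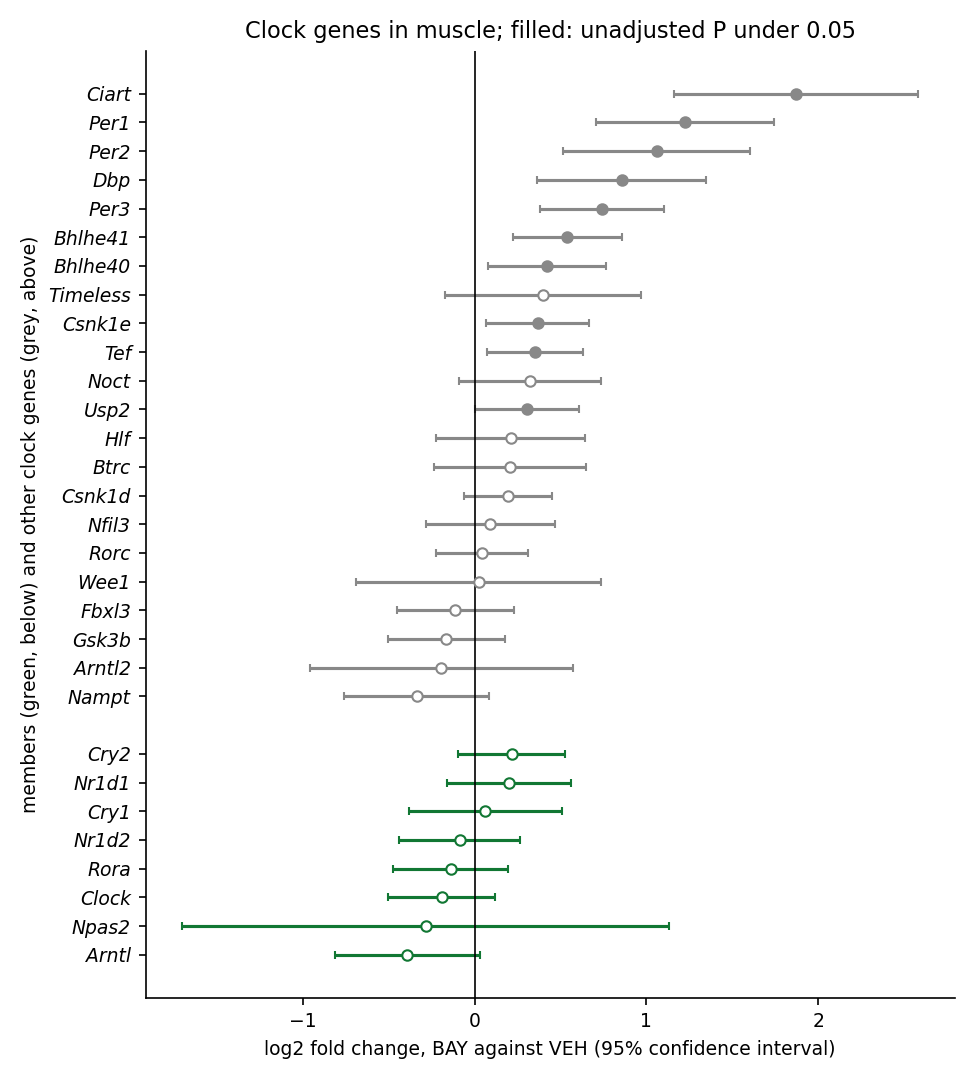
Log2 fold change of BAY against VEH in muscle with its 95% confidence interval, for the 8 core clock genes (green) and for the other clock genes averaging 1 CPM or more (grey), filled where the unadjusted limma P value is under 0.05. The 8 green intervals all include 0, and the 10 filled points, all grey, lie on the higher side.

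Because the members act on each other, their levels were also compared within each library. Nr1d1 was divided by Arntl in each mouse, as a ratio of CPM values that is read between mice only. It was 5.95, 8.21, 8.28 and 8.79 in VEH 1 to 4 and 12.4, 8.87, 16.2 and 10.3 in BAY 1 to 4. The groups did not overlap, but VEH 4 and BAY 2 were almost equal. Among genes averaging 5 CPM or more, 12.9% were likewise higher relative to Arntl in all BAY-treated mice than in all VEH-treated mice.

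The same limma fit was then run on the log2 value of each gene minus that of Arntl. Relative to Arntl, Nr1d1 was higher in BAY by 0.59 on the log2 scale (95% confidence interval 0.13 to 1.05), with an unadjusted P value of 0.0155 and an adjusted P value of 0.172. Cry2 was higher by 0.61 (0.12 to 1.09), with an unadjusted P value of 0.0183 and an adjusted P value of 0.178. These were the 2 of 7 members that passed the unadjusted threshold, where 19.7% of all genes passed it and 19% did so in the same direction, since every gene is set against the same low values of Arntl in BAY. Left out 1 mouse at a time, the Nr1d1 difference ran from 0.43 without BAY 3 to 0.72, and its unadjusted P value reached 0.0661 without VEH 1. For Cry2 the range was 0.47 to 0.76, with an unadjusted P value of up to 0.0705. Fitted by limma without a mean-variance trend, the unadjusted P values were 0.0535 for Nr1d1 and 0.0661 for Cry2. Cry1 (0.45), Nr1d2 (0.30), Rora (0.25), Clock (0.20) and Npas2 (0.11) did not pass.

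Relative to Nr1d1 rather than to Arntl, fewer genes passed the unadjusted P value of 0.05 as higher in BAY, at 1.68% of all genes, and 11.6% passed in either direction. Per1 was still higher relative to Nr1d1 by 1.02 on the log2 scale (unadjusted P = 0.00193, limma adjusted P = 0.178), and so were Ciart by 1.67, Per2 by 0.86, Dbp by 0.66 and Per3 by 0.54. The rest of the 10 genes did not pass, namely Bhlhe41 (0.34), Bhlhe40 (0.22), Csnk1e (0.17), Tef (0.15) and Usp2 (0.11). Their unadjusted P values ran from 0.101 to 0.534 by limma. Among the members, Arntl, Clock and Rora were lower relative to Nr1d1 in BAY, at -0.59, -0.39 and -0.34 on the log2 scale. Their unadjusted P values were 0.0118, 0.0219 and 0.0156 by limma. The Arntl value is the difference of Nr1d1 relative to Arntl with its sign turned, and not a further result. Relative to Nr1d2 no member passed the unadjusted threshold. Arntl, Clock and Rora were then at -0.30, -0.11 and -0.05, with unadjusted P values of 0.222, 0.500 and 0.765 by limma. Cry2 differed from Nr1d1 by 0.02 (95% confidence interval -0.29 to 0.32). None of these values passed adjustment over all genes.

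**Figure D3:**
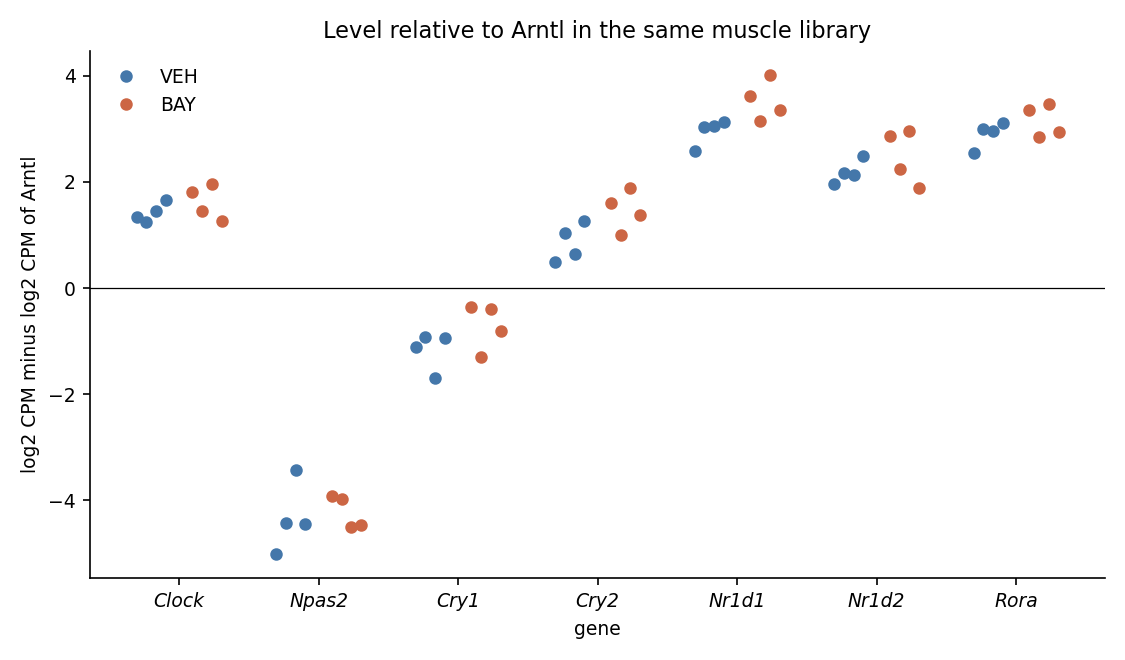
Log2 CPM of 7 core clock genes minus log2 CPM of Arntl in the same muscle library, for the 4 VEH-treated (blue) and the 4 BAY-treated (orange) mice, placed by replicate number. Nr1d1 is the member whose groups do not overlap, with VEH 4 and BAY 2 close to each other.

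As background, Arntl and Nr1d1 peak at opposite times of day in a running clock. Over the 8 muscle libraries their log2 values had a Pearson r of 0.08 (exact permutation P = 0.851) and a Spearman rho of 0.00 (exact permutation P = 1.00). Without BAY 3 and VEH 3, the libraries farthest from the median of Arntl, r was -0.07. With each mouse left out in turn, r ran from -0.39 without VEH 3 to 0.40 without BAY 3, and it was -0.28 after each library was centred on its median. Within the groups, with each group's mean taken off, r was 0.41.

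All 28 pairs of members were compared in this way, with permutation P values adjusted over the 28. The correlation was positive for 23 pairs and negative for 5, each of these between an activator and a cryptochrome, from -0.08 for Arntl and Cry1 to -0.29 for Arntl and Cry2. Unadjusted exact permutation P values of these 5 ran from 0.482 to 0.855. Npas2 and Cry2 were positive at 0.11, and rho was positive for Arntl and Cry1 (0.05) and for Clock and Cry1 (0.14). In 7 pairs the unadjusted exact permutation P value was under 0.05, and in none was the adjusted value, the smallest being 0.173. The highest r was 0.82 for Npas2 and Rora (exact permutation P = 0.021, adjusted P = 0.173), with a rho of 0.57 (exact permutation P = 0.151). It was 0.55 without BAY 3 and VEH 3, the libraries farthest from the median of Npas2, and 0.43 without VEH 3 alone, and it rests on the few reads of Npas2. Next came Cry2 and Nr1d1 at 0.81 (exact permutation P = 0.0136, adjusted P = 0.173), with a rho of 0.69 (exact permutation P = 0.0694). The pair of Cry2 and Nr1d1 reached 0.92 without VEH 3, where its adjusted permutation P value was 0.0278. Without VEH 1 and VEH 4, the libraries farthest from the median of Cry2, it was 0.34.

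The highest rho of the 28 was 0.83 for Nr1d1 and Rora (exact permutation P = 0.0154, adjusted P = 0.324), with an r of 0.72 (exact permutation P = 0.0431, adjusted P = 0.173). That r was 0.95 with group means taken off and at least 0.595 whichever mouse was left out. It was 0.63 without VEH 1 and VEH 4, the libraries farthest from the median of Nr1d1, and 0.20 after median centring.

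Other pairs rested on VEH 3. Clock and Npas2 had an r of 0.79 with that mouse and 0.20 without it. Clock and Rora had 0.76 with it and 0.20 without it, and Arntl and Clock had 0.67 and 0.31. Clock and Nr1d2 kept an r of at least 0.687 whichever mouse was left out (0.77 over all 8, exact permutation P = 0.0339, adjusted P = 0.173), but it was 0.23 without the 2 libraries farthest from the median of Clock.

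The scale of the libraries moved these values as well. Over the 7571 protein-coding genes averaging 5 CPM or more, the median r with Nr1d1 was 0.47 and the median r with Arntl was 0.12, so that a positive r was common to most genes. With each library centred on its median, 15 pairs were positive and 13 negative, and Clock and Cry2 moved from -0.15 to -0.87 (exact permutation P = 0.00295, adjusted P = 0.0826). No pair had an adjusted P value under 0.05 both with and without VEH 3.

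**Figure D4:**
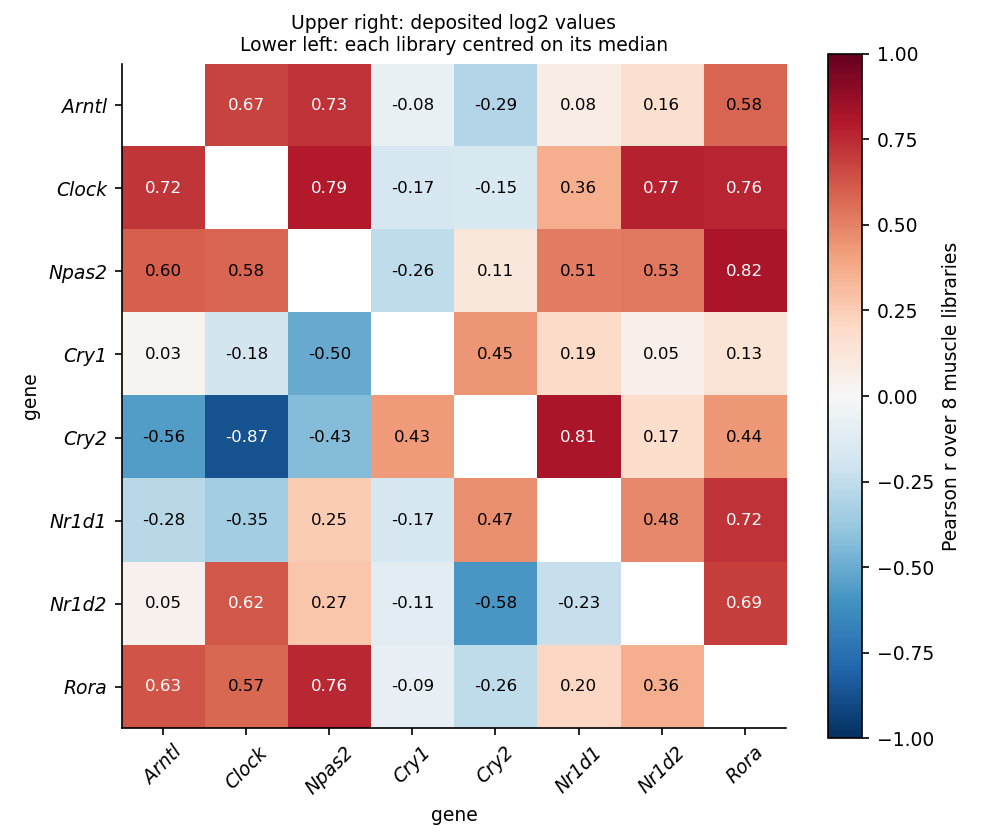
Pearson r between the log2 values of each pair of core clock genes over 8 muscle libraries, as deposited (upper right) and after each library was centred on its median (lower left), on a scale from -1 (blue) to 1 (red). Most deposited values are positive, while Cry2 turns from positive to negative with Npas2, Nr1d2 and Rora after centring.

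The genes whose pattern over the 8 muscle libraries was most like that of Arntl were Rer1, Sh3bgr, Nexn, Cst3 and Cdc5l, with r from 0.96 to 0.97 among those 7571 genes. The most opposite were Shroom4, Dop1a, She, Zfp407 and Prex2, from -0.93 to -0.97. For Nr1d1 the most like included Tmem127 at 0.99, Pdf, Ltbp1 and Tnxb, and the most opposite were Ncs1, Fam221b, Lars2, Rps18 and Dis3l2, from -0.71 to -0.81. Clock ranked 724th by r with Arntl, and no other clock gene was among the 10 genes named for Arntl or for Nr1d1.

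In cortical bone the standard errors of the log2 fold changes were larger, from 0.516 to 1.10 over the 8 members against 0.145 to 0.659 in muscle, and most member values lay close to a background that differed between libraries. The part of that background, of depth and of tissue content in the larger errors was not tested. The 1355 olfactory receptor genes took 0.0513% of all CPM in VEH 1 and 3.52% in BAY 4, with 2.92% in VEH 2 and 2.24% in VEH 4. Their CPM per exon kilobase, multiplied by the exon length of a member, gave the background for that member in each library. In VEH 1 all 8 members exceeded it and 6 did so by more than 3 times. In VEH 3, 7 exceeded it, and 5, 4 and 5 did so in BAY 1, BAY 2 and BAY 3. In VEH 4 only Nr1d1 did, at 1.93 times the background, and in VEH 2 and BAY 4 none of the 8 did.

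**Figure D5:**
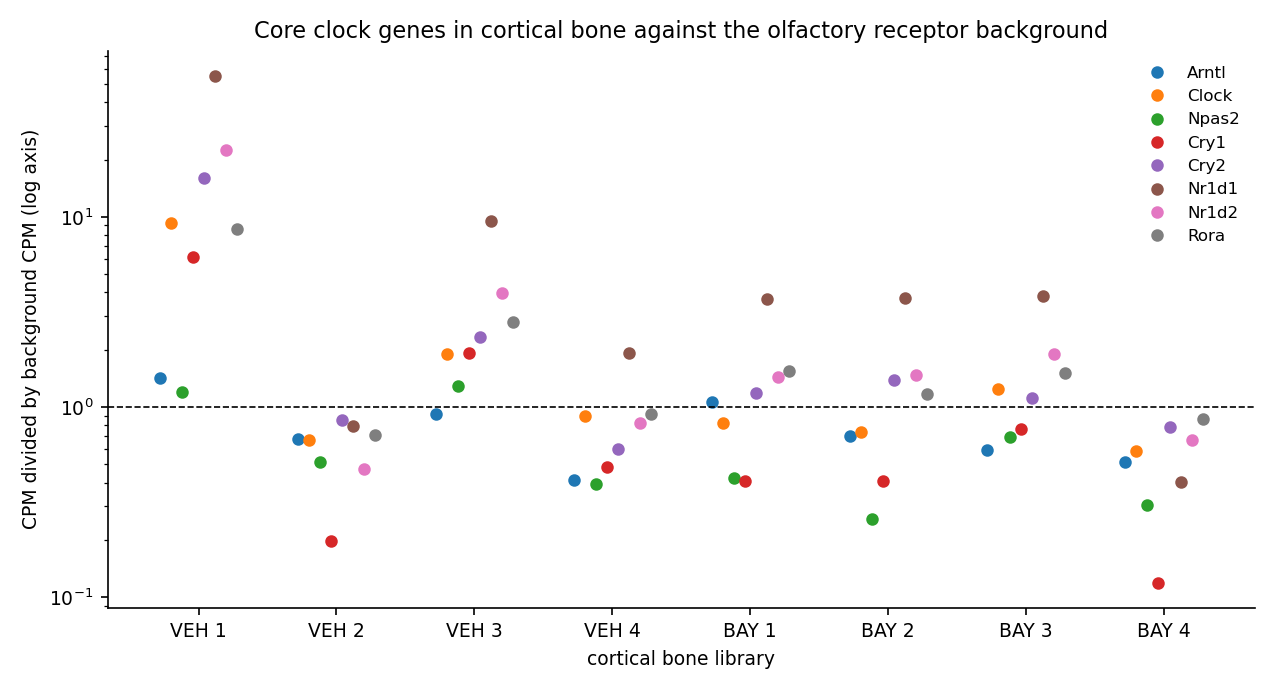
CPM of the 8 core clock genes in each cortical bone library divided by the background level that olfactory receptor genes give for the same exon length, on a log axis with the background as a dashed line. The members spread from 1.19 to 55.0 times the background in VEH 1 and lie below it in VEH 2 and BAY 4.

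Arntl varied most of the 8 between the bone libraries. It was listed at 2.16, 58.9, 14.9 and 27.7 CPM in VEH 1 to 4 and at 38.0, 21.5, 18.3 and 53.7 CPM in BAY 1 to 4, and only VEH 1 and BAY 1 exceeded the background, by 1.41 and 1.06 times. The 2 highest values were in VEH 2 and BAY 4, the libraries with the largest olfactory receptor shares. The log2 fold change of 0.99 had a 95% confidence interval of -1.01 to 2.98 and an adjusted P value of 0.887 by limma. Without VEH 1 it was 0.049, without VEH 2 it was 1.64, and with each library centred on its median it was 0.14.

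Clock was at 21.1, 86.5, 45.7 and 89.5 CPM in VEH 1 to 4 and at 43.8, 33.5, 57.5 and 91.4 CPM in BAY 1 to 4. Npas2 was at 0.863, 21.2, 9.92 and 12.4 CPM in VEH 1 to 4 and at 7.15, 3.72, 10.2 and 15.05 CPM in BAY 1 to 4. The 3 highest values of each were in VEH 2, VEH 4 and BAY 4, and only in VEH 1 did Clock exceed the background by more than 3 times.

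Cry1 was at 4.03, 7.36, 13.5 and 13.8 CPM in VEH 1 to 4 and at 6.26, 5.38, 10.2 and 5.37 CPM in BAY 1 to 4. Cry2 was at 18.1, 55.2, 27.99 and 29.8 CPM in VEH 1 to 4 and at 31.3, 31.4, 25.5 and 61.3 CPM in BAY 1 to 4. The groups overlapped for both cryptochromes.

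Nr1d1 was the member that stood out from the background most often, by more than 3 times in VEH 1, VEH 3, BAY 1, BAY 2 and BAY 3. It was at 23.5, 19.3, 43.2 and 36.1 CPM in VEH 1 to 4 and at 37.1, 32.1, 33.4 and 11.8 CPM in BAY 1 to 4. In the 5 libraries just named it spanned 23.5 to 43.2 CPM, and the 3 BAY-treated mice lay between the 2 VEH-treated mice. The log2 fold change was -0.15 (95% confidence interval -1.47 to 1.17), and 0.10 without VEH 2, VEH 4 and BAY 4.

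Nr1d2 was at 26.8, 32.2, 50.3 and 42.95 CPM in VEH 1 to 4 and at 40.2, 35.2, 45.8 and 54.8 CPM in BAY 1 to 4. Rora was at 16.5, 77.3, 57.04 and 76.4 CPM in VEH 1 to 4 and at 69.3, 44.7, 58.6 and 112.9 CPM in BAY 1 to 4. Nr1d2 varied least of the 8 members across the bone libraries, with a standard deviation of 22.9% of its mean, against 66.5% for Arntl.

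None of the 8 members passed the unadjusted P value of 0.05 in bone, where 0.64% of all genes did, and their groups overlapped throughout, where those of 0.406% of all genes did not. The smallest P value of a member was 0.304 by limma. The median log2 fold change was 0.22 over the members and 0.84 over all genes, 80.9% of which were higher in BAY on the deposited scale. That shift rested on VEH 1, since the median over all genes was -0.09 without it, and it was 2.05 without VEH 2, VEH 4 and BAY 4. Relative to the shift over all libraries the signs of Clock, Npas2, Cry2, Nr1d2 and Rora turned, as they did when each library was centred on its median. The 95% confidence intervals were wide, with lower bounds between 0.21 and 0.545 times the VEH level and upper bounds between 2.25 and 7.88 times. Of the 24 other clock genes in bone, none passed the unadjusted threshold. The bone libraries also differed in their tissue content. The 8 muscle fibre genes summed to 39.3 to 9578 CPM in VEH (median 162.8) and 89.1 to 39147 CPM in BAY (median 18698). The 10 osteoblast and osteocyte genes summed to 1068 to 21947 CPM in VEH (median 9956) and 1138 to 15673 CPM in BAY (median 1471). Their part in the clock gene values was not tested.

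Across the tissues the tables were normalized separately, so levels are set side by side without a test. Per exon length Nr1d1 averaged 37.5 CPM per kilobase in muscle, where it was first in every mouse, and 9.12 ± 3.22 (SD, n = 8) in bone. There it was first in all libraries but VEH 2, where Cry2 was higher, and BAY 4, where Rora was the highest, and in both of these the members lay below the background. In muscle each of the 8 libraries held 7 members, all but Npas2, at more than 3 times the olfactory receptor background, which rests on the 43 such genes in the muscle table and is not the same measure as in bone. Arntl spanned 8.77 to 18.6 CPM in muscle, and 2.16 to 58.9 CPM in bone, where it exceeded the bone background in 2 of 8 mice.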

How the data were processed

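Bulk RNA-seq was analysed for 16 libraries. The authors aligned reads with STAR 2.7.8a to mm39, quantified Ensembl release 104 genes by Partek's E/M method, and took log2 of CPM plus an offset, which is the unit deposited. The lowest entries put that offset at 0.0001 CPM in bone and 0.0004 CPM in muscle. Reads were recovered from the steps between low values, which gave whole numbers (within 0.02) for 81.3% to 88.4% of values of at most 50 reads. The 95% confidence intervals are limma's and cover the spread between mice. Per tissue, BAY and VEH were compared with limma 3.58.1 in R 4.3.3, by lmFit and eBayes with a trend on the deposited log2 values of all genes, with two-sided tests and Benjamini-Hochberg adjustment over the table. The authors used limma-voom, which is an alternative here, and their thresholds define a called gene (unadjusted P under 0.05, at least 2-fold either way). Groups came from the labels, with 4 mice each, and the replicate numbers were not given as pairs. Correlations used all permutations of the 8 libraries. GENCODE release M39 gave exon lengths, and Python 3.11.15, scipy 1.17.1 and pysam 0.24.0 were used for the other steps. The fits were tested on simulated data.

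The members and all gene lists were chosen with earlier results of these data known. The rule for named genes takes the 8 members in full, the 24 other clock genes as counts and singly at an unadjusted P value under 0.05 or where members are set against them, and the 5 genes most like and the 5 most opposite to Arntl and to Nr1d1. Thra was added because it overlaps Nr1d1, and 1 gene under this rule is not reported here. Alternatives were other pseudocounts, median centring, quantile normalization, a 1 CPM filter on the mean, array weights, voom, no trend, a replicate block and each mouse left out. The background subtraction, the 3 bone libraries left out, median centring of log2(CPM + 1) and the fits relative to a member were chosen after seeing the data.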

Additional observations from a re-analysis of the deposited data

Results flagged for a closer look

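A pair of values of the members stood apart from the rest of their group. The measure was the gap to the nearest mouse as a share of the group's range, both taken on log2 values and not on CPM. Cry2 in muscle was lowest in BAY 2, at 25.8 CPM against 31.8 to 32.5 CPM in the other BAY-treated mice, with a gap of 0.9 of the range. Nr1d1 in bone was lowest in BAY 4, at 11.8 CPM against 32.1 to 37.1 CPM, with a gap of 0.873 of the range. BAY 4 was the shallowest library, with 930307 reads on genes and 11 reads on Nr1d1, and the level lay below its olfactory receptor background. Of 32 groups checked 2 were beyond the limit, where chance gives about 1 in 20 groups.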

How the results depend on the processing

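In muscle the signs of Arntl, Clock, Cry2, Nr1d1 and Rora held under every alternative run, but with 1 mouse left out their log2 fold changes ran from -0.55 to -0.27, -0.27 to -0.064, 0.11 to 0.30, 0.093 to 0.35 and -0.24 to -0.0011. The count of members with an unadjusted P value under 0.05 was 0 as reported, 1 (Arntl) after median centring, with or without log2(CPM + 1), 2 (Arntl and Clock) after quantile normalization, and 0 to 1 with a mouse left out, namely Nr1d1 without VEH 3 and Arntl without VEH 4. Nr1d2 turned to 0.041 with array weights. With 1 mouse left out, the log2 fold changes ran from -0.49 to 0.14 for Npas2, from -0.028 to 0.18 for Cry1 and from -0.18 to 0.055 for Nr1d2, and relative to Arntl from -0.12 to 0.41 for Npas2. The correlated pairs passing adjustment came to 0 to 1. Genes called over the whole muscle table numbered 510, with 52 on log2(CPM + 1), centred or not, 193 after the filter, where fewer genes were tested, 598 without a trend, 601 with array weights, 645 on log2(CPM + 0.1), 700 with voom, and 448 to 567 with a mouse left out.

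In bone no member passed under any alternative. Median centring turned Clock to -0.84, Npas2 to -0.63, Cry2 to -0.63, Nr1d2 to -0.62 and Rora to -0.38. On log2(CPM + 1) with centring they were -0.57, -0.52, -0.36, -0.35 and -0.12. Quantile normalization gave -0.20 for Clock, -0.64 for Npas2 and -0.0020 for Cry2. Array weights gave -0.23 for Arntl, -0.62 for Clock, -1.21 for Npas2, -0.43 for Cry2, 0.35 for Nr1d1 and -0.14 for Rora. Background subtraction gave -1.29 for Clock, -0.47 for Npas2, -0.16 for Cry2 and 0.0025 for Nr1d1, which was 0.10 without VEH 2, VEH 4 and BAY 4. With 1 mouse left out the ranges were 0.049 to 1.64 for Arntl, -0.42 to 0.27 for Clock, -0.78 to 0.76 for Npas2, -0.048 to 0.51 for Cry2, -0.76 to -0.17 for Cry1, -0.34 to 0.23 for Nr1d1, 0.078 to 0.38 for Nr1d2 and -0.050 to 0.69 for Rora. Genes called over the whole bone table numbered 249, with 82 after the filter, 443 after median centring, 484 on centred log2(CPM + 1), 705 after quantile normalization, 408 without a trend, 901 with array weights, 1433 with voom, 5714 without those 3 libraries, and 115 to 1116 with a mouse left out (the lowest without VEH 3, the highest without VEH 2). The cause of these changes was not tested.

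With the replicate number as a block, 489 genes were called in muscle and 305 in bone, and no member passed. The deviations of same-numbered mice correlated between -0.09 and 0.01 in muscle and between -0.11 and 0.19 in bone. Of the VEH libraries, only VEH 3 and VEH 4 in bone correlated best with the BAY library of their own number. The labels give no pairing, and these few values cannot show whether same-numbered mice were handled together. A planned negative binomial test on the recovered reads was not run, and voom was the test run on those reads. Npas2 in muscle has no value under the filter, its mean being under 1 CPM. Depth limits Npas2 in muscle, at 3 to 16 reads per library.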
